A study of Mus musculus with 28 samples.

Results

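Tmc1, Tmc2, Tmie, Lhfpl5 and Loxhd1 encode proteins of the mechanotransduction apparatus of hair cells (HCs), the sensory cells of the inner ear. They were taken by name, as 5 of the 19421 genes in the deposited table, and all 5 were among the 16837 genes that reached 10 normalized counts in 2 or more libraries, on which every test was run. The 28 libraries come from 7 mouse embryonic stem cell (ESC) lines in which doxycycline (Dox) switches on Atoh1, Gfi1 and Pou4f3, transcription factors of HC development, in every combination: iAtoh1, iGfi1, iPou4f3, iG+A (Gfi1 and Atoh1), iG+P (Gfi1 and Pou4f3), iP+A (Pou4f3 and Atoh1) and iGPA (Gfi1, Pou4f3 and Atoh1). All lines derive from A2loxCre cells and carry a cassette that ends in the fluorescent reporter Venus, with 3xFlag on Atoh1 and 3xMyc on Pou4f3.

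Embryoid bodies (EBs), aggregates in which ESCs differentiate, were grown without LIF, and Dox was added at 2 µg/ml on day 4 for 48 h. RNA of Dox groups came from Venus+ cells sorted on day 6, and RNA of untreated groups (No Dox) from whole, unsorted EBs of the same day, so an effect of Dox and one of the sort cannot be told apart within a line. Each group held 2 replicates, which are different clones of a line. In bulk RNA, fewer cells that express a gene and less RNA per cell cannot be told apart either.

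A HC opens its transduction channels when tip links pull on the stereocilia of its hair bundle. TMC1 and TMC2 are thought to line the pore, TMIE and LHFPL5 are small membrane proteins that join them in the complex and tie it to the tip link, and LOXHD1 is a large stereociliary protein needed for transduction in mature HCs. In the cochlea Tmc2 is transient and precedes Tmc1, and mutations in several of these genes cause deafness.

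The table lists log2(normalized count + 1), from which normalized counts were recovered, and their sums were 36.8 to 40.4 M per library. Estimated depth was 30.4 to 48.0 M reads, so that a normalized count is close to 1 read. Each transgene rose with Dox in every line that carries it, by 6.51 to 9.87 on the log2 scale. Of the genes that were not in a line's cassette, Pou4f3 rose in iAtoh1 (2.21) and iG+A (3.11), Atoh1 in iGfi1 (2.04) and iG+P (2.70), and Gfi1 in iPou4f3 (1.55) and iP+A (1.65). A gene was called where its log2 difference reached 1.5 in size and its adjusted p was below 0.05, by limma fitted to all 14 groups with Benjamini-Hochberg adjustment over all genes.

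With Dox, 4 of the 5 members were called upward in at least 1 line, against 14.5% of all genes, and the members called were not the same in each line. No member was called in iAtoh1 (0 of 5, against 2.89% of all genes called upward) or in iGfi1 (0 of 5, against 2.15%). In these lines limma gave 0 members an unadjusted p under 0.05, against 5986 and 6431 of the 16837 genes. In iPou4f3 Loxhd1 alone rose, which is 1 of 5 against 1.47% of genes, and in iG+A Tmie alone, 1 of 5 against 7.35%. In iP+A Tmie and Loxhd1 rose, 2 of 5 against 4.7%. In iG+P Tmc1, Tmie and Loxhd1 rose, 3 of 5 against 5.16%, and in iGPA Tmc2, Tmie and Loxhd1 rose, 3 of 5 against 8.65%. No member was called downward with Dox in any line, where the share of all genes called downward was 5.31% in iGPA, 5.36% in iG+P, 4.95% in iG+A, 2.67% in iGfi1, 2.58% in iP+A, 2.52% in iAtoh1 and 0.606% in iPou4f3. Downward calls were gained in iG+A with 1 library left out, for Lhfpl5 and for Loxhd1, and for Lhfpl5 in iGPA at a log2 difference of 1.

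**Figure D1:**
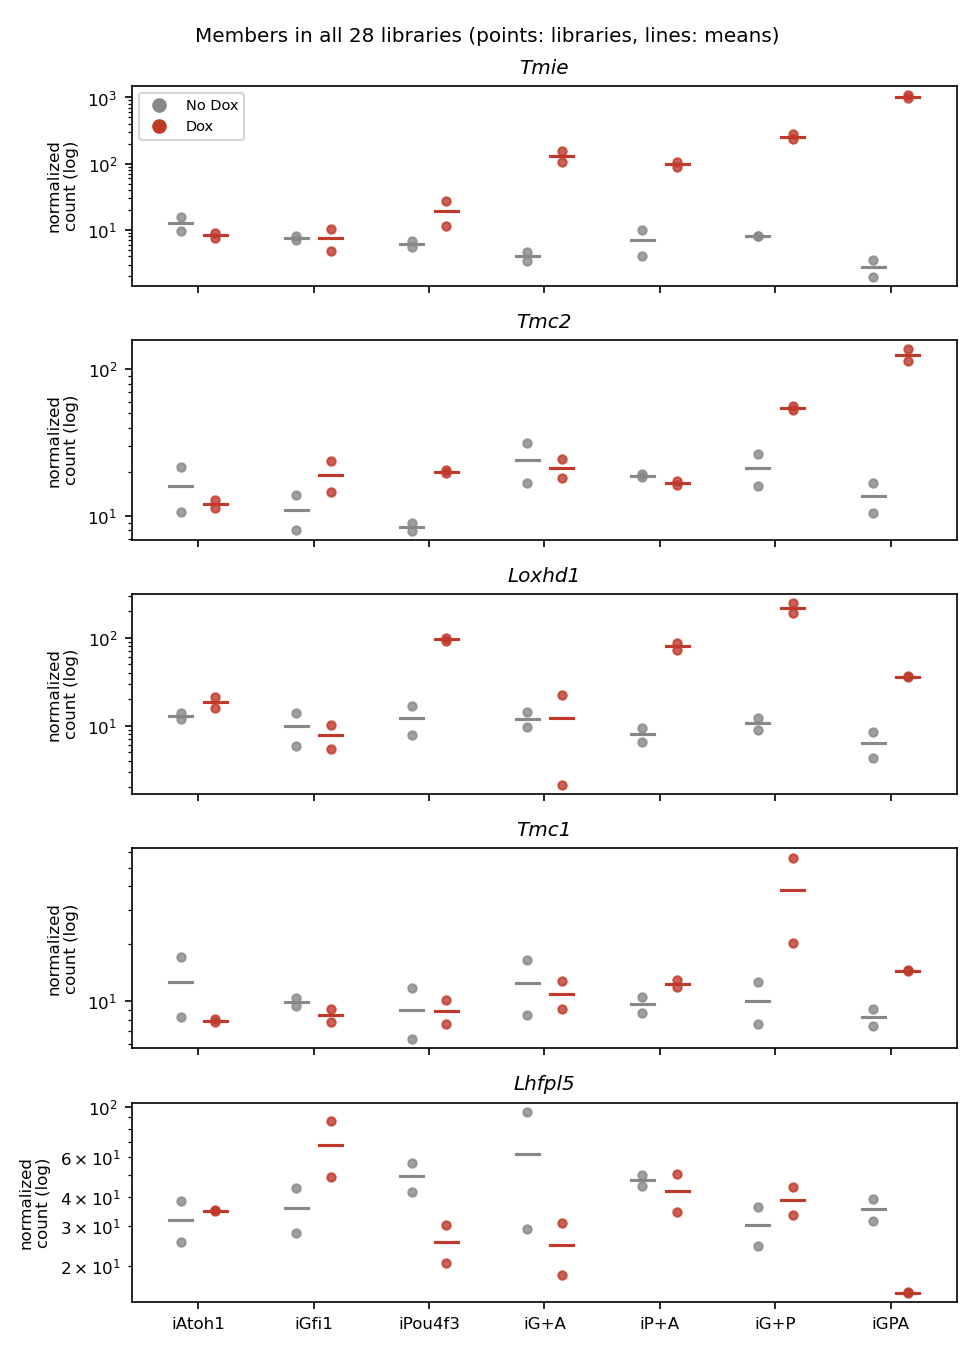
Normalized counts (log axis) of each member in every library, by line, with No Dox libraries in grey and Dox libraries in red; short lines are group means of 2 libraries. Tmie in iGPA Dox stands highest, at 975 and 1086, while Lhfpl5 in the same libraries lies at 15.3 and 15.1, below all others of its panel.

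Of the pore-forming pair, Tmc2 rose in iGPA. Tmc2 (Entrez 192140, NCBIM37 chromosome 2, 130020930 to 130090181, plus strand) had 10.5 and 16.7 normalized counts in untreated iGPA EBs and 114 and 137 in iGPA Dox cells. This was a log2 difference of 3.14 (SE 0.40, adjusted p = 4.38e-06), with 247 reads summed over the Dox libraries against 29, a ratio of 9.23 (exact 95% interval 6.27 to 14.1, counting error only). In iG+P it had 26.6 and 16 without and 55.9 and 53.1 with Dox. These groups did not overlap, and in iG+P 34.2% of all genes lay wholly above their untreated values. The difference of 1.36 (SE 0.40, adjusted p = 0.0130) was under the threshold of 1.5. It was called with all untreated libraries as control (1.80, adjusted p = 4.25e-04), without iG+P No Dox replicate 1 (1.70, adjusted p = 0.0156) and at a threshold of 1.

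In the order of Tmc2 levels, iGPA Dox came first and iG+P Dox next, each separated from the group after it. In iPou4f3 Tmc2 had 7.90 and 8.93 without and 20.5 and 19.6 with Dox, a difference of 1.16 with an adjusted p of 0.112. In iGfi1 it had 14 and 8.0 without and 14.5 and 23.7 with Dox, at 0.75. Both lines had higher values with Dox in every library, as 25.2% and 34.6% of all genes did there, and neither was called. In iAtoh1 (21.5 and 10.6 without, 12.8 and 11.3 with Dox), iG+A (31.3 and 16.8, then 18.1 and 24.4) and iP+A (19.3 and 18.4, then 17.2 and 16.4) the differences were -0.31, -0.12 and -0.16. The 95% interval in iP+A, -1.0 to 0.68, lay wholly below the difference in iGPA.

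Tmc1, which follows Tmc2 in the maturing cochlea, rose in iG+P. Tmc1 (Entrez 13409, chromosome 19, 20857948 to 21028692, minus strand) had 12.6 and 7.59 normalized counts in untreated iG+P EBs and 20.1 and 56.5 in iG+P Dox cells. The difference was 1.69 (SE 0.47, adjusted p = 0.00884), and the replicates with Dox lay far apart. Without iG+P Dox replicate 2 it was 0.97 (adjusted p = 0.184), so that the call rests on that library, and it was also lost without iG+P No Dox replicate 2 (1.36, adjusted p = 0.0920).

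In the other 6 lines Tmc1 was not called. In iGPA it had 9.10 and 7.44 without and 14.5 and 14.3 with Dox, a difference of 0.74 (95% interval -0.24 to 1.73, adjusted p = 0.210). The groups did not overlap, and 37.7% of all genes lay wholly above their untreated values in iGPA. The 10 libraries of iAtoh1, iGfi1, iPou4f3, iG+A and iP+A with Dox lay between 7.58 and 12.9, and the 14 untreated ones between 6.34 and 17.1. After iG+P Dox, no group was separated from the next in the order of Tmc1 levels. The Tmc1 values of all 28 libraries were fractions of a read, as transcript-level estimates can be, whereas those of Tmc2 and Lhfpl5 were whole reads in 28 of 28 libraries, within 0.05 of a read.

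Tmie rose in each of the 4 lines with more than 1 factor, and in each of them its Dox difference had the highest value among the members. Tmie (Entrez 20776, chromosome 9, 110768215 to 110782617, minus strand) had 3.5 and 1.97 normalized counts in untreated iGPA EBs, which were about 4 and 2 reads, and 975 and 1086 in iGPA Dox cells. The difference was 8.14 on the log2(count + 1) scale (SE 0.44, adjusted p = 1.35e-10), the 23rd highest of 16837 genes. As the untreated reads were few, the ratio of 377 had an exact 95% interval of 173 to 1030, for counting error only.

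In the pairs of factors the rise of Tmie was smaller than in iGPA. In iG+P Tmie had 8.18 and 8.02 without and 279 and 233 with Dox, a difference of 4.81 (SE 0.44, adjusted p = 1.62e-07). In iG+A it had 4.64 and 3.36 without and 154 and 105 with Dox, a difference of 4.69 (adjusted p = 2.03e-07). In iP+A it had 4.07 and 10.1 without and 106 and 89.4 with Dox, a difference of 3.71 (adjusted p = 5.39e-06). The groups did not overlap within any of these lines, where 34.2%, 32.6% and 31.1% of all genes lay wholly above their untreated values. In the order of levels iGPA Dox stood above iG+P Dox, and iG+P Dox above iG+A Dox, while iG+A Dox and iP+A Dox overlapped.

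With single factors Tmie was not called. In iPou4f3 it had 6.77 and 5.58 without and 11.6 and 27.4 with Dox, a difference of 1.40 (95% interval 0.48 to 2.32, adjusted p = 0.0774). The groups did not overlap, but the value rests on the Dox libraries: it was 1.99 without Dox replicate 1 (adjusted p = 0.0438, a call gained) and 0.81 without Dox replicate 2. In iAtoh1 it had 15.6 and 9.79 without and 9.14 and 7.57 with Dox, and in iGfi1 7.99 and 7.00 without and 4.83 and 10.3 with Dox. Their differences were -0.52 (95% interval -1.45 to 0.40) and -0.06 (-0.99 to 0.86).

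**Figure D2:**
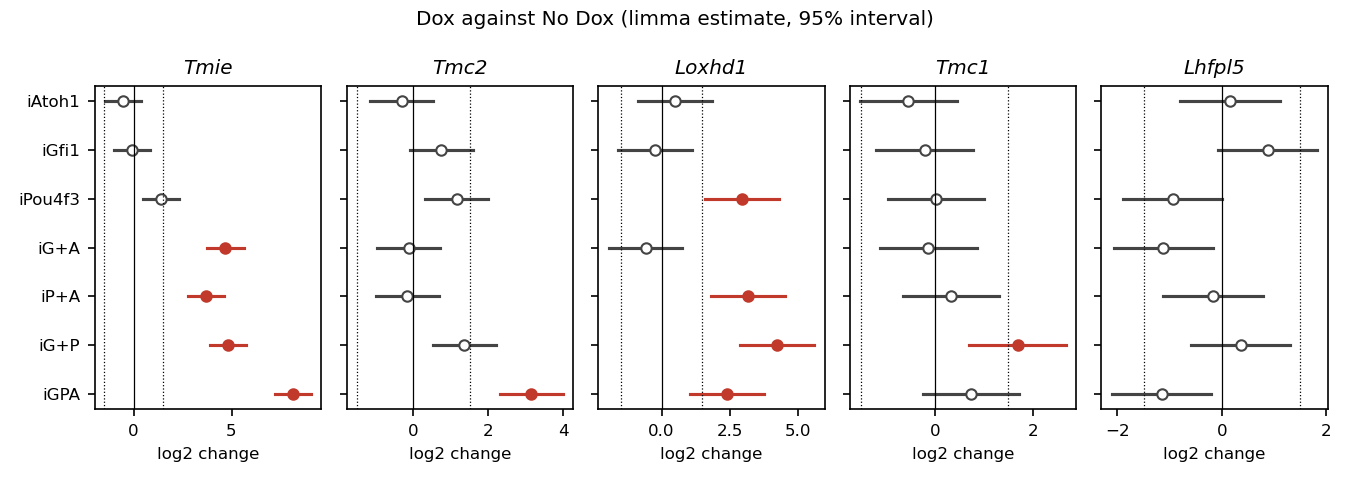
Log2 difference of Dox against No Dox for each member (columns) in each line (rows), with 95% intervals from limma; filled red points were called, and dotted lines mark a difference of 1.5. Tmie was called in the 4 lines with more than 1 factor, reaching 8.14 in iGPA, and Lhfpl5 in none. Each column has its own horizontal scale.

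The start of Tmie lies beside that of Als2cl, a gene on the opposite strand that was added as a neighbour after its values were seen. In the GENCODE M1 annotation of NCBIM37 their exons shared 244 bases (chromosome 9, 110782374 to 110782617). Whether the UCSC knownGene transcripts, to which the reads were assigned, share bases too was not examined. The counting was not stated to use strand, so that reads from any shared bases cannot be told apart. Als2cl had 149 and 67.0 normalized counts in untreated iGPA EBs and 1018 and 1083 in iGPA Dox cells, a difference of 3.38 (adjusted p = 2.56e-06). It rose in iG+A as well, by 2.67 (adjusted p = 5.20e-05), and had a difference of 1.27 in iG+P, under the threshold. In iP+A Als2cl had 171 and 269 without and 186 and 188 with Dox, a difference of -0.20, in libraries in which Tmie rose by 3.71. Of the Tmie values, 24 of 28 were whole reads within 0.05 of a read.

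**Figure D3:**
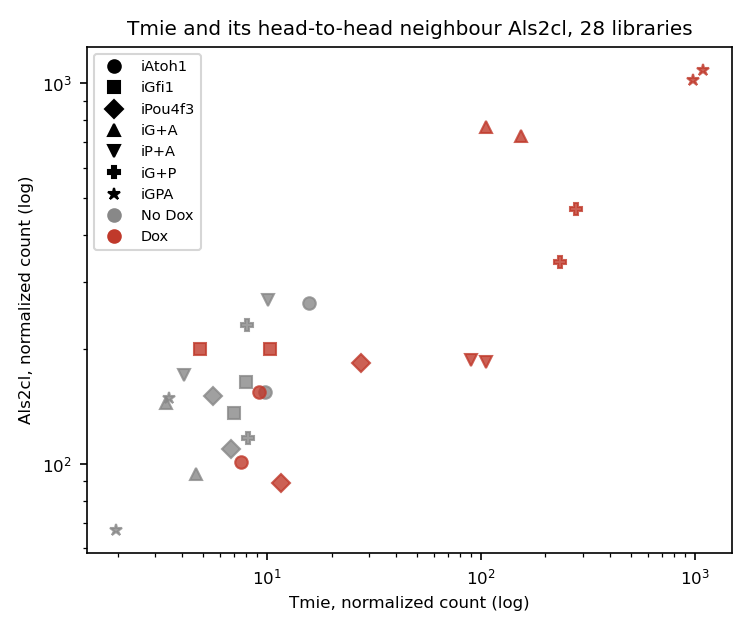
Tmie against its neighbour Als2cl in 28 libraries (normalized counts, both axes log), with a marker for each line, grey without and red with Dox. In iP+A Dox, Tmie stood at 106 and 89.4 with Als2cl at 186 and 188, among the untreated values of Als2cl, whereas in iG+A and iGPA Dox both genes were high.

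The sequences before the start of Tmie, Lhfpl5 and Tmc1 are shown because the first rose in 4 lines, the second in none and the third in 1. They are the 250 bases upstream of the RefSeq starts in GRCm38.p6, read 5′ to 3′ on the strand of the gene, and matched by symbol for 3 of the 5 members (not for Tmc2 or Loxhd1). Capitals mark matches to CANNTG, the E-box bound by basic helix-loop-helix proteins such as Atoh1, a palindrome that reads alike on both strands. Tmie is at chr9:110880074-110880323 (minus strand), Lhfpl5 at chr17:28575469-28575718 (plus strand) and Tmc1 at chr19:20954203-20954452 (minus strand).
Tmie: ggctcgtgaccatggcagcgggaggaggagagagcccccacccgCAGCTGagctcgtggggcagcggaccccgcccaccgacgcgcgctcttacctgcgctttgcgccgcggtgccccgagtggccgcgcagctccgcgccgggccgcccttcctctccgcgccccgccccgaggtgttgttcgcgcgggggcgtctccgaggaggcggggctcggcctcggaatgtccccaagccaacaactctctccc
Lhfpl5: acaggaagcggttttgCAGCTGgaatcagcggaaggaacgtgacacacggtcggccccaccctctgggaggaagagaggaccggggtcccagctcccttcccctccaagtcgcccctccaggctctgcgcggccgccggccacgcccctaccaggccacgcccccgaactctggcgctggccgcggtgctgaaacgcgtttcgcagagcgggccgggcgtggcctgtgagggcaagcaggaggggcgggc
Tmc1: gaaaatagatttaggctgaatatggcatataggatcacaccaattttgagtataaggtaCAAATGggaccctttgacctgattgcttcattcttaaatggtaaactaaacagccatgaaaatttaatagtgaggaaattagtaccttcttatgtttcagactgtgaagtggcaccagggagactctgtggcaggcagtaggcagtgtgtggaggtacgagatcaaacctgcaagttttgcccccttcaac
Each window held 1 CANNTG, as 66.2% of 32851 promoter windows of that length did with at least 1. In Tmie and Lhfpl5 it was CAGCTG, found in 13% of windows, starting at positions -206 and -234 from the gene's start. AATC, the core of Gfi1 sites, searched on both strands, occurred 0 times in Tmie, 1 time in Lhfpl5 and 2 times in Tmc1, and in 69% of windows. ATTAAT, a core of POU factor sites that reads alike on both strands, was in none of the 3 and in 4.39% of windows. The Tmie window was 74.8% G or C with 33 CpG, and that of Lhfpl5 70.8% with 24 CpG, against medians of 52.4% and 6 over all windows. That of Tmc1 was 41.2% with 1 CpG. In GRCm38.p6 the starts of Tmie and Als2cl are 47 bases apart, so that the Tmie window lies largely within Als2cl.

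Lhfpl5, which couples the channel to protocadherin 15 of the tip link, was called in no line in the fit to all libraries. Lhfpl5 (Entrez 328789, chromosome 17, 28712663 to 28720538, plus strand) had 31.5 and 39.3 normalized counts in untreated iGPA EBs and 15.3 and 15.1 in iGPA Dox cells. The difference was -1.15 (95% interval -2.11 to -0.20, adjusted p = 0.0450), short of the threshold of 1.5 in size but past one of 1. In iG+A it had 95.1 and 29.1 without and 30.8 and 18.3 with Dox, a difference of -1.12 (adjusted p = 0.0563) that ran from -1.96 to -0.28 with a library left out. Without iG+A No Dox replicate 2 it was called downward, at -1.96 (adjusted p = 0.00291). The untreated replicates of iG+A were more than 3 times apart, and its groups overlapped.

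In the remaining lines Lhfpl5 was higher with Dox in some and lower in others. In iGfi1 it had 28.0 and 44.0 without and 49.3 and 86.6 with Dox, and in iPou4f3 56.4 and 42.4 without and 30.3 and 20.5 with Dox. These groups did not overlap, at differences of 0.88 (adjusted p = 0.165) and -0.94 (adjusted p = 0.281). Of all genes, 34.6% lay wholly above their untreated values in iGfi1 Dox, and 26.3% wholly below in iPou4f3 Dox. In iAtoh1 (25.4 and 38.3, then 34.7 and 35.0), iG+P (24.6 and 36.1, then 33.4 and 44.4) and iP+A (49.9 and 45.0, then 50.7 and 34.6) the groups overlapped. The upper bounds of the 95% intervals over the 7 lines were highest in iGfi1, at 1.83, so that a rise like that of Tmie in iP+A was outside all of them. Limma gave Lhfpl5 an unadjusted p under 0.05 in iG+A and iGPA, both downward. It gave such a p to 8284 and 8806 of 16837 genes in these lines.

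Per kilobase of exons, Lhfpl5 was the most abundant member in all untreated groups, at 24.1 to 49.3 normalized counts per kb. The other members lay between 0.78 and 7.47 per kb there. In iGPA Dox the order was Tmie 368 ± 28.1, Tmc2 39.0 ± 5.18, Lhfpl5 12.1 ± 0.12, Loxhd1 4.41 ± 0.10 and Tmc1 3.21 ± 0.03 (normalized counts per kb, SD, n = 2). In iG+P Dox it was Tmie 91.3 ± 11.5, Lhfpl5 30.9 ± 6.19, Loxhd1 26.6 ± 4.71, Tmc2 16.9 ± 0.61 and Tmc1 8.51 ± 5.70. Lhfpl5 and Loxhd1 did not differ beyond their spread in iG+P Dox. Tmc1 was lowest in both lines.

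Loxhd1 rose in every line with Pou4f3. Loxhd1 (Entrez 240411, chromosome 18, 77520697 to 77681080, plus strand) had 8.86 and 12.3 normalized counts in untreated iG+P EBs and 191 and 246 in iG+P Dox cells, a difference of 4.25 (SE 0.65, adjusted p = 5.15e-05). In iPou4f3 it had 16.7 and 7.73 without and 92.4 and 98.6 with Dox, at 2.96 (adjusted p = 0.0106). In iP+A it had 9.43 and 6.53 without and 86.9 and 72.0 with Dox, at 3.18 (adjusted p = 0.00141). These groups did not overlap, and iG+P Dox stood above iPou4f3 Dox and iPou4f3 Dox above iP+A Dox in each replicate.

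In iGPA Loxhd1 had 4.28 and 8.54 normalized counts without and 35.6 and 36.8 with Dox, a difference of 2.39 (SE 0.65, adjusted p = 0.00553). The levels with Dox lay below those of the other lines with Pou4f3, but the main fit called no difference in Dox effect from iP+A or iG+P. That difference was -0.79 against iP+A (95% interval -2.71 to 1.13, adjusted p = 0.603) and -1.86 against iG+P (95% interval -3.78 to 0.06, adjusted p = 0.188). With a pseudocount of 5 the difference from iG+P was called, at -1.96 (adjusted p = 0.0426). The call for Dox in iGPA was lost without iGPA No Dox replicate 1, at 1.96. That in iPou4f3 was lost with 3 of the 4 libraries left out in turn, although the difference stayed between 2.45 and 3.47: without iPou4f3 No Dox replicate 2 (adjusted p = 0.118) and without Dox replicate 1 (0.0720) or 2 (0.0817).

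Without Pou4f3 in the cassette Loxhd1 was not called. In iAtoh1 it had 11.8 and 13.8 without and 21.4 and 16 with Dox, and in iGfi1 13.9 and 5.79 without and 10.1 and 5.40 with Dox, at differences of 0.50 and -0.25. In iG+A it had 14.2 and 9.73 without and 22.2 and 2.11 with Dox, at -0.59 (95% interval -1.95 to 0.77). The iG+A Dox replicates were more than 10 times apart, and without Dox replicate 1 the difference was -2.04 (adjusted p = 0.00779) and was called, whereas without Dox replicate 2 it was 0.86. Across all lines, Dox libraries lay wholly above the untreated ones for 25.2% to 37.7% of genes and wholly below for 26.3% to 36.4%, so that separation by itself was common.

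To ask what each factor added, the comparison subtracted the Dox effect of a line from that of a line with 1 more factor, 9 such differences in all. They share lines, so that they are not independent of each other. Each also takes in the untreated levels of both lines. Mean untreated Tmie was 12.7 in iAtoh1 and 4.00 in iG+A, and mean untreated Tmc2 was 21.3 in iG+P and 13.6 in iGPA. The 9 differences were not fitted with all untreated libraries as control. Adding Gfi1 raised the Dox effect on Tmie in each of its 3 settings: by 5.22 (SE 0.62, adjusted p = 2.16e-05) on Atoh1, where 1 of 5 members was called against 6.87% of genes in either direction, by 3.41 (adjusted p = 9.31e-04) on Pou4f3 (1 of 5 against 7.63%) and by 4.43 (adjusted p = 9.16e-05) on Pou4f3 with Atoh1 (2 of 5 against 7.6%). In the last of these Tmc2 rose too, by 3.30 (SE 0.57, adjusted p = 5.68e-04). On Atoh1 or Pou4f3 alone, Gfi1 changed the Dox effect on Tmc2 by 0.18 and 0.20, with 95% intervals up to 1.37 and 1.38.

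Adding Pou4f3 raised Tmie by 4.23 (adjusted p = 3.29e-04) on Atoh1, with 1 of 5 members called against 2.78% of genes. It raised Tmie by 4.88 (adjusted p = 1.07e-04) on Gfi1, where 2 of 5 were called against 1.85%, the other being Loxhd1 at 4.50 (SE 0.91, adjusted p = 0.00843). On Gfi1 with Atoh1 it raised Tmie by 3.45 (adjusted p = 0.00270) and Tmc2 by 3.27 (adjusted p = 0.00177), 2 of 5 against 2.2%. Loxhd1 had positive differences in the other two settings as well, 2.67 on Atoh1 (adjusted p = 0.106) and 2.98 on Gfi1 with Atoh1 (adjusted p = 0.0767). Both were called with replicates as a block, at adjusted p of 0.0416 and 0.0288. The second ran from 1.53 without iG+A Dox replicate 2 to 4.43 without iG+A Dox replicate 1, where it was called (adjusted p = 0.00122). The call of Loxhd1 on Gfi1 was lost without iGfi1 No Dox replicate 1 (3.94, adjusted p = 0.0556).

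Adding Atoh1 raised Tmie by 4.76 (adjusted p = 4.94e-05) on Gfi1 and by 3.33 (adjusted p = 0.00136) on Gfi1 with Pou4f3. On Gfi1, 2 of 5 members were called against 8.54% of genes, the other being Lhfpl5, which fell by 2.00 on the log2 scale (SE 0.64, adjusted p = 0.0282). That call was lost without iG+A No Dox replicate 1 (-1.16, adjusted p = 0.180), iGfi1 No Dox replicate 1 (-1.68, adjusted p = 0.114), iGfi1 Dox replicate 2 (-1.60, adjusted p = 0.107) or iG+A Dox replicate 2 (-1.63, adjusted p = 0.101). On Gfi1 with Pou4f3, 2 of 5 were called against 5.9%, and Tmc2 was the other, at 1.79 (SE 0.57, adjusted p = 0.0386).

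The call of Tmc2 for Atoh1 on Gfi1 with Pou4f3 was lost with replicates as a block (adjusted p = 0.0572) and in 7 of 8 fits that left a library out (1.44 to 2.10). In the same comparison Lhfpl5 was called downward with the block, at -1.51 (adjusted p = 0.0282, 0.123 without it). Loxhd1 was called downward there with a pseudocount of 5, at -1.96 (adjusted p = 0.0426). On Pou4f3 alone, adding Atoh1 called 0 of 5 members against 1.61% of genes by limma, with 2 at an unadjusted p under 0.05. Such a p was reached there by 2473 of 16837 genes. Tmie had a difference of 2.31 there (95% interval 1.00 to 3.61, adjusted p = 0.0509) and Tmc2 one of -1.32 (adjusted p = 0.272).

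**Figure D4:**
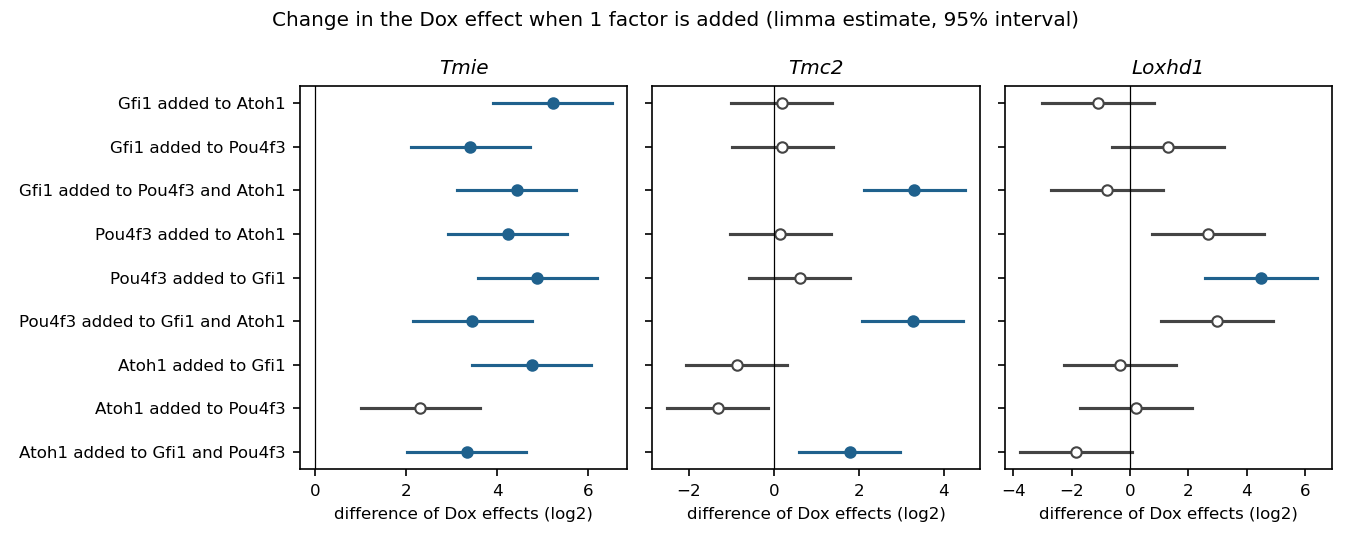
Difference between the Dox effects of 2 lines that differ by 1 factor, for Tmie, Tmc2 and Loxhd1 (log2, 95% intervals from limma; filled points were called). Tmie was raised in 8 of 9 comparisons, Tmc2 in the 3 that end in iGPA, and Loxhd1 in 1, where Pou4f3 was added to Gfi1.

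The Dox effect in a line with several factors was also set against the sum of the effects of its factors alone, on the log2 scale. For iG+A, 1 of 5 members was called against 2.99% of genes: Tmie exceeded the sum by 5.28 (SE 0.76, adjusted p = 0.00128). For iGPA, 1 of 5 was called against 2.65%, again Tmie, by 7.32 (SE 0.88, adjusted p = 1.66e-04). For iG+P limma called 0 of 5 against 0.208% of genes, with 2 members and 1399 of 16837 genes at an unadjusted p under 0.05. Tmie was 3.47 above the sum (95% interval 1.88 to 5.07, adjusted p = 0.0662). For iP+A limma called 0 of 5 against 0.422%, with 1 member and 2019 of 16837 genes at an unadjusted p under 0.05. Tmie was 2.83 above the sum there (95% interval 1.23 to 4.43, adjusted p = 0.101).

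Tmie lay above the sum of single factors in all 4 lines, and was called in 2. Tmc2 lay 1.54 above it in iGPA (95% interval -0.14 to 3.21, adjusted p = 0.319). Loxhd1 was 1.54 above it in iG+P, 0.28 below it in iP+A and 0.82 below it in iGPA, with adjusted p of 0.832, 0.953 and 0.796. Lhfpl5 was 2.15 below the sum in iG+A (adjusted p = 0.102, and 0.0237 with replicates as a block, where it was called). That value rests on the untreated iG+A libraries, as it was -2.99 without No Dox replicate 2 (adjusted p = 0.0133, called) and -1.31 without No Dox replicate 1.

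A list of 13 other genes took in the tip link, proteins that bind or transport the channel, and further genes of the hair bundle or of mechanosensation, such as the pump gene Atp2b2 and the channel gene Piezo2. Of these, 10 were tested, and Cib3, Clrn1 and Clrn2 were below the filter. With Dox, 7 of 10 rose in each of iGPA and iG+P, against 8.65% and 5.16% of all genes. It was 5 in each of iG+A and iPou4f3, against 7.35% and 1.47%, and 3 in each of iP+A and iGfi1, against 4.7% and 2.15%. In iAtoh1 0 rose, against 2.89%, and 1 fell, against 2.52%, Pkhd1l1 (fell by 2.27 on the log2 scale). The median log2 difference of the list was 3.01 in iG+P and 2.48 in iGPA, where that of all genes was 0.0027 and 0.0058. It was 1.26 in iG+A, 1.23 in iPou4f3, 0.80 in iP+A, 0.72 in iGfi1 and 0.31 in iAtoh1.

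Pcdh15, the lower part of the tip link, rose in 5 of 7 lines. It had 63.6 and 82.1 normalized counts in untreated iGPA EBs and 2099 and 2863 with Dox, in order from low to high, a difference of 5.07 (SE 0.36, adjusted p = 3.29e-09). It rose by 3.80 in iG+A, 3.11 in iG+P, 2.43 in iPou4f3 and 2.17 in iGfi1, and had -0.17 in iP+A (95% interval -0.92 to 0.58), where Tmie and Loxhd1 rose. Cdh23, the upper part of the tip link, was called in no line, and its differences ran from -0.75 to 0.77. Whether all reads counted for Cdh23 came from that gene was not tested, which limits what its values show. Its values were 10368 and 36932 in untreated iGPA EBs and 27200 and 22116 with Dox.

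Tomt, needed to bring TMC proteins to the bundle, rose by 5.62 in iG+P (adjusted p = 1.97e-07), from 7.84 and 10.9 to 411 and 617 normalized counts. It rose by 2.28 in iGPA and 1.96 in iPou4f3. Cib2, which binds TMC1 and TMC2, rose by 2.68 in iGPA (adjusted p = 1.89e-09), 1.93 in iG+A and 1.66 in iG+P. Of the other genes called in iGPA, Atp2b2, the calcium pump of the bundle, rose by 4.41, Ush1c, the scaffold harmonin, by 3.52, and Piezo2, a channel of touch receptors, by 1.75. Ush1g, the scaffold SANS, had 112 and 113 normalized counts in iGPA Dox and under 1 in untreated iGPA EBs. Tomt and Tmc1 were both highest in iG+P Dox among the 14 groups, as were Loxhd1, Ush1c and Cdh23. The Tmc1 replicates there were far apart, at 20.1 and 56.5.

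**Figure D5:**
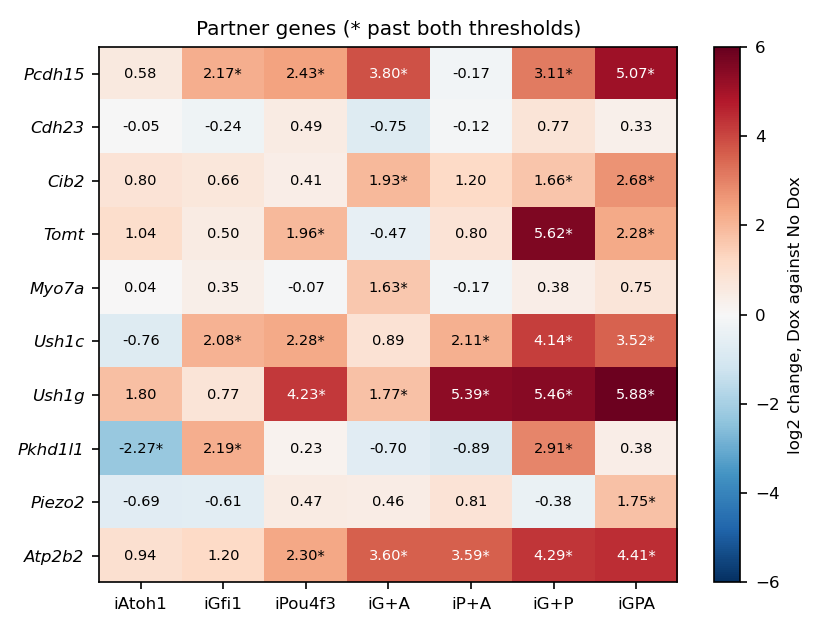
Log2 difference of Dox against No Dox for the 10 tested partner genes (rows) in each line (columns); colour and number give the difference, and a star marks a call. Pcdh15 reads 5.07 in iGPA and -0.17 in iP+A, and Tomt 5.62 in iG+P.

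Among 11 relatives of the members in sequence (6 of the Tmc and 5 of the Lhfpl family), 1 rose with Dox in iGPA, against 8.65% of all genes, Tmc5 by 1.63 (adjusted p = 0.0221). In iP+A 2 rose, against 4.7%, Lhfpl1 by 1.89 (adjusted p = 0.00193) and Lhfpl4 by 1.54 (adjusted p = 0.00876). In the other 5 lines 0 of 11 were called, against 1.47% to 7.35% of all genes called upward and 0.606% to 5.36% downward. The median difference of the list was 0.31 in iGPA and 0.09 in iP+A, where that of all genes was 0.0058 and -0.030.

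As a description, the genes whose group means followed each member most closely were found by Pearson's r of log2 values over 14 groups, which share lines and depth of sequencing with the member. For Tmie they were Casz1 (0.979), Lingo3 (0.975) and Cyfip2 (0.972), and for Loxhd1 they included Slc17a4 (0.936) and Sucnr1 (0.934). For Tmc2 they were Lrch1 (0.907), Klhdc8a (0.904) and Cdk15 (0.902), for Tmc1 Syt6 (0.922), Parvg (0.911) and Ppp1r1b (0.885), and for Lhfpl5 Fam25c (0.847), 1700016H13Rik (0.836) and Mettl21c (0.827). No member was among the 3 closest to another. Between members r was highest for Tmie and Tmc2, at 0.803, and lowest for Tmie and Lhfpl5, at -0.613.

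Markers of other cell types moved with Dox in the libraries in which the members rose. Of all genes, 8.65% were called upward and 5.31% downward in iGPA, and 4.7% upward in iP+A. All 9 HC markers in the list were detected, and their summed level was 15205 to 15880 normalized counts in iGPA Dox against 4173 to 4331 without, with 4 of 9 called upward in iGPA. Of these markers, Lhx3 was at 0 in 5 libraries and Pvalb and Calb2 in 1 each. The 8 neuronal markers summed to 6755 to 6934 in iGPA Dox and 16800 to 22646 in iP+A Dox, against 375 to 1253 in untreated libraries, and 7 of 8 rose in iGPA and 8 of 8 in iP+A, with Nefm at 0 in 1 library. The 7 fibroblast markers summed to 7169 to 7836 in iGPA Dox and 8417 to 10339 in iG+P Dox, against 43314 to 107020 in untreated libraries, and in iGPA 6 of 7 fell and 1 rose. The 7 blood markers summed to 26315 to 46909 in iGPA Dox and 255960 to 428230 in its untreated EBs, with Ptprc at 0 in 5 libraries, and 3 of 7 fell in iGPA. The 6 sensory neuron markers summed to 15159 to 16504 in iGPA Dox against 872 to 1045 without, and 5 of 6 rose. Moves were smaller in iG+P, where 5.16% of all genes were called upward. Neuronal markers summed to 1739 to 2124 there with Dox against 707 to 748 without, and 2 of 8 rose. Sensory neuron markers summed to 1607 to 1752 against 1348 to 1592, and 2 of 6 rose. Of 6 pluripotency markers 3 fell in iGPA, and of 4 endothelial markers 1 fell. Their part in the changes of Tmie, Tmc2 and Loxhd1 was not tested.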

How the data were processed

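RNA-seq libraries were prepared with a KAPA mRNA kit. Per the labels and methods, adapters were removed with cutadapt, and Kallisto at its default settings assigned reads to the UCSC knownGene transcriptome of mm9 (NCBIM37). The authors obtained gene-level values through tximport and used DESeq2 for normalization (versions not given in the sources used here). The deposited values are log2 of the normalized count plus 1, for genes by Entrez ID. They are not raw counts: only 70.3% to 79.4% of normalized counts up to 20 came within 0.05 of a whole number of reads, so that count tests were not run, and depth was estimated from the value of 1 read. Intervals on reads cover counting error only.

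Symbols came from RefSeq (19314 of 19421 genes), gene coordinates and exon lengths from GENCODE M1 on NCBIM37, and promoters from RefSeq on GRCm38.p6. Genes reaching 10 normalized counts in 2 or more libraries were fitted with limma 3.58.1 in R 4.3.3 (14 groups, 14 residual degrees of freedom, pseudocount 1, variance trend), with tables and plots in Python 3.11.15. On simulated data with known changes in iGPA Dox the fit was tested first. Recovery was scored only for genes with higher counts, so that levels as low as those of Tmc1 were not covered. Contrasts were 7 Dox effects, 9 differences for an added factor and 4 differences from the sum of single lines.

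Values are given for the 5 members, for partners called in iGPA and Pcdh15, Cdh23, Cib2 and Tomt, for relatives that were called, for the transgenes, and for the 3 genes closest to each member, of which 1 is not reported here. The members and lists were chosen with earlier results of these data known. Replicates are different clones, and the fit held no pairing. For the alternative with replicates as a block, equal numbers were read as pairs within a line, since the deviations of same-numbered libraries from their group means correlated by 0.103 to 0.246 in the 7 lines, although it is not stated that equal numbers mean the same clone. Alternatives were pseudocounts of 0.5 and 5, no filter or one of 50 counts, 2 scalings (by quantiles and by the 75th percentile), replicates as a block, only the groups compared, all untreated libraries as control, limma without trend, a log2 difference of 1, and each library left out.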

Additional observations from a re-analysis of the deposited data

Results flagged for a closer look

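The Dox effects of 2 lines that differ by 1 factor differed, by limma's test of the difference itself, in 13 cases among the members over 9 comparisons, in each of which 1.61% to 8.54% of all genes were called. They are given here as log2 differences of Dox effects. For Tmie they were 5.22 when Gfi1 was added to Atoh1, 3.41 when it was added to Pou4f3 and 4.43 when it was added to Pou4f3 with Atoh1. They were 4.23 for Pou4f3 added to Atoh1, 4.88 for Pou4f3 added to Gfi1 and 3.45 for Pou4f3 added to Gfi1 with Atoh1. They were 4.76 for Atoh1 added to Gfi1 and 3.33 for Atoh1 added to Gfi1 with Pou4f3.

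For Tmc2 the Dox effect differed by 3.30 when Gfi1 was added to Pou4f3 with Atoh1, by 3.27 when Pou4f3 was added to Gfi1 with Atoh1 and by 1.79 when Atoh1 was added to Gfi1 with Pou4f3. For Loxhd1 it differed by 4.50 when Pou4f3 was added to Gfi1. For Lhfpl5 it differed by -2.00 when Atoh1 was added to Gfi1. With only the groups compared, the Tmc2 calls at 3.27 and 1.79 and the Lhfpl5 call were lost (adjusted p = 0.0507, 0.0595 and 0.147). The Tmc2 call at 1.79 was also lost with replicates as a block (adjusted p = 0.0572) and with quantile normalization (adjusted p = 0.0778). Groups of 2 libraries are too small to search for single libraries that stand apart.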

How the results depend on the processing

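Over all alternatives, 1719 of 1775 values of single members kept their side of the thresholds, 26 calls were lost, 30 were gained and 0 called values changed direction, while 47 values called in neither setting changed sign. Tmie kept its calls in iG+A, iG+P, iP+A and iGPA under all 15 alternatives, at 3.88 to 4.97, 4.31 to 5.15, 3.13 to 4.28 and 7.07 to 8.44, as did Tmc2 in iGPA (2.79 to 3.45) and Loxhd1 in iG+P (3.84 to 4.46) and iP+A (2.71 to 3.41). Tmc1 was not tested under the filter of 50 normalized counts. With a pseudocount of 5 the call of Tmc1 in iG+P was lost (1.40), and with only the groups compared those of Tmc1 in iG+P (adjusted p = 0.0979) and Loxhd1 in iPou4f3 (adjusted p = 0.0687). Few reads limit Tmc1 and the untreated levels of Tmie and Loxhd1.

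Of the counts of members called upward, a pseudocount of 5 gave 2 for Pou4f3 added to Atoh1 and 1 each for Atoh1 added to Pou4f3, iG+P beyond its sum and iP+A beyond its sum. It also gave 1 called downward, Loxhd1, for Atoh1 added to Gfi1 with Pou4f3. Quantile normalization gave 2 for Dox in iPou4f3 and 1 each for Atoh1 added to Pou4f3 and Atoh1 added to Gfi1 with Pou4f3. Limma without trend gave 1 for Atoh1 added to Pou4f3. A log2 difference of 1 gave 1 called downward for Dox in iGPA. With only the groups compared, the count was 0 for Dox in iPou4f3, 2 for Pou4f3 added to Atoh1, 1 for Pou4f3 added to Gfi1 with Atoh1 and 1 for Atoh1 added to Gfi1 with Pou4f3, and 0 downward for Atoh1 added to Gfi1. With the replicate block, the count was 2 for Pou4f3 added to Atoh1 and 1 for Atoh1 added to Gfi1 with Pou4f3, with 1 downward for the latter and 1 for iG+A beyond its sum. The pairing changed no other count by over 1.5 times. Apart from the fits on fewer groups, the cause of these changes was not tested.

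With each library left out in turn, the counts upward ran from 0 to 1 for Dox in iPou4f3, 2 to 4 for Dox in iG+P, 2 to 3 for Dox in iGPA, 1 to 2 for Gfi1 added to Pou4f3, 1 to 3 for Pou4f3 added to Gfi1, 0 to 1 for Atoh1 added to Pou4f3, 1 to 2 for Atoh1 added to Gfi1 with Pou4f3, and 0 to 1 for iG+P and for iP+A beyond the sum. Counts downward ran from 0 to 1 for Dox in iG+A, Gfi1 added to Atoh1, Atoh1 added to Gfi1 and iG+A beyond its sum. A lone library was assumed to vary like the other groups. Over all genes, the fit on only the groups compared gave 117 upward and 18 downward calls in iPou4f3 in place of 248 and 102, 226 downward in iAtoh1 in place of 424, and 192 downward in iP+A in place of 435. A log2 difference of 1 gave 337 to 2070 upward and 157 to 1417 downward calls in a line, in place of 248 to 1456 and 102 to 902.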
